A study of Homo sapiens with 4 samples.

Results

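Collagen VI is a matrix protein whose common form is a heterotrimer of an alpha 1, an alpha 2 and an alpha 3 chain, encoded by COL6A1, COL6A2 and COL6A3. These 3 genes were taken by name from 61471 genes in the deposited tables, and all 3 passed the filter on low counts, which kept 16413 genes. They were chosen by name, and selected on their higher counts in EGFP negative cells in an earlier look at these libraries. Their own levels are therefore given as a description, with no test, and no support is drawn from them.

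RNA was sequenced from MDA-MB-231, a human breast cancer line of the triple-negative kind. The cells are labelled wild type in genotype and carried, in both groups, a histone H2B-EGFP fusion and a red fluorescent protein under the CMV promoter. The EGFP negative group (2 libraries) is labelled with increased extravasation, the exit of tumour cells from a vessel, and the EGFP positive group (2 libraries) without it. The labels used here give neither the ploidy of a group nor whether it came from a single clone, and they are silent on whether libraries came from separate cultures. The p-values therefore reflect the spread of these libraries alone, which may be technical. EGFP status and extravasation status cannot be told apart.

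The chains fold together in the endoplasmic reticulum, where the central collagenous part of each winds into a short triple helix. Most of each chain lies outside that helix, in globular von Willebrand factor A domains. Trimers pair into dimers and tetramers before secretion, and the tetramers join end to end into beaded microfibrils that lie close to cells and basement membranes. The alpha 3 chain is the longest, and its C-terminal end can be cut off and released as endotrophin, a fragment known for signalling in mammary tumours of mice. Fibroblasts are the best known source of collagen VI, and carcinoma cells can also make it.

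COL6A1 and COL6A2 lie in the same orientation on chromosome 21 and COL6A3 lies on chromosome 2. In the deposited annotation, whose coordinates are those of GRCh38, COL6A1 spans 45981770 to 46005048 on the plus strand with 35 separate exon blocks. COL6A2 spans 46098112 to 46132848 on the plus strand with 29 exon blocks, and 93063 bp separate the pair. COL6A3 spans 237324018 to 237414207 on the minus strand with 44 exon blocks. The summed exon lengths are 4203 bp for COL6A1, 4351 bp for COL6A2 and 10690 bp for COL6A3. No other listed gene overlaps the span of any chain (0 for each). Counting without regard to strand therefore could not mix a chain with an antisense gene of that annotation. Antisense transcripts outside it were not examined.

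The promoters of COL6A2 and COL6A3, paralogous chains that differed in how much they changed, are shown as a description. Whether the letters around their start sites have a part in that difference was not tested. The set of RefSeq promoter windows used here (GRCh38.p14) held 2 of the 3 chains, without COL6A1. Each window runs from 250 bases before to 50 bases after the start annotated by RefSeq, 5′ to 3′ on the strand of the gene. Capitals mark matches to the motifs searched. For COL6A3 that start lies inside the deposited span given above. The COL6A2 window is chr21:46097862-46098161 on the plus strand and the COL6A3 window chr2:237414115-237414414 on the minus strand.
COL6A2: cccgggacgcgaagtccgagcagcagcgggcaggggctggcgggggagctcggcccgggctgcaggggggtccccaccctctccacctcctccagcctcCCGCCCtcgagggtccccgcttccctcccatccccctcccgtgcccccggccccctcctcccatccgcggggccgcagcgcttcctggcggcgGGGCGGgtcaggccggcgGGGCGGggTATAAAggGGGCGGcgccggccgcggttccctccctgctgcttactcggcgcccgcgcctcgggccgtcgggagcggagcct
COL6A3: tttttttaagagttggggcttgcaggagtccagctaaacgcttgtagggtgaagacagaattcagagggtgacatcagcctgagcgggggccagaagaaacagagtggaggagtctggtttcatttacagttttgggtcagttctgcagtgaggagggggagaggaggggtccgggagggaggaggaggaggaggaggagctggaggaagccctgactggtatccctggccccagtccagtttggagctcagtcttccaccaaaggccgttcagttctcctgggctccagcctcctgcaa

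Both strands were searched for 5 motifs: the TATA box as TATAAA, the CCAAT box by its own letters, the Sp1 box as GGGCGG, the site of AP-1 factors as TGANTCA, and that of TEAD factors as GGAATG. The COL6A2 window held TATAAA with its first base 32 bases before the start, and 4 copies of GGGCGG, of which 3 were on the strand of the gene and 1 on the other, with no overlap between matches. TATAAA occurs in 12% of 27305 promoter windows of this length and GGGCGG in 44.6%. The COL6A3 window held 0 matches to any of the 5 motifs, of which CCAAT occurs in 35.7%, TGANTCA in 7.76% and GGAATG in 14% of windows. GC content was 79.3% in the COL6A2 window and 56.3% in the COL6A3 window, against a median of 58.3% over all windows. The COL6A2 window held 36 CpG dinucleotides and the COL6A3 window 4, against a median of 14. These matches describe letters and do not show binding.

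All 3 chains were at higher levels in EGFP negative cells, and they differed in how far. COL6A1, which encodes the alpha 1 chain, had 1882 and 1540 counts in the EGFP negative libraries, against 274 and 248 in the EGFP positive libraries. That is 151 and 132 CPM (counts per 1000000 of the scaled library total) in EGFP negative libraries and 23.7 and 21.5 CPM in EGFP positive libraries. The lower EGFP negative library stood far above the higher EGFP positive one. The means were 142 ± 13.6 CPM in EGFP negative cells and 22.6 ± 1.54 CPM in EGFP positive cells (SD, n = 2 each), a log2 fold change of 2.65 ± 0.11 (SE).

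COL6A2, which encodes the alpha 2 chain, had 285 and 249 counts in the EGFP negative libraries, against 17 and 30 in the EGFP positive libraries. Its levels were 22.9 and 21.3 CPM in EGFP negative libraries and 1.47 and 2.60 CPM in EGFP positive libraries. The EGFP negative libraries lay close together. The EGFP positive pair differed more, although 95% counting intervals of 0.857 to 2.35 CPM and 1.76 to 3.72 CPM overlapped. On the log2 scale the fold change was 3.43 ± 0.23 (SE), with 3.08 when EGFP positive library 1 was left out and 3.90 when EGFP positive library 2 was.

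COL6A3, which encodes the alpha 3 chain, had 872 and 762 counts in the EGFP negative libraries, against 305 and 344 in the EGFP positive libraries. Those counts correspond to 70.1 and 65.3 CPM in EGFP negative libraries and 26.4 and 29.9 CPM in EGFP positive libraries. The groups again did not overlap, and the distance between them was the smallest of the 3 chains, with a log2 fold change of 1.27 ± 0.11 (SE). Both EGFP negative libraries lay above both EGFP positive ones for all 3 chains, as they did for 28.1% of 16413 tested genes. The chains were chosen with this contrast known, so nothing is read from that count. Among all tested genes ordered by log2 fold change, COL6A2 was at place 29 from the top, COL6A1 at place 62 and COL6A3 at place 278.

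**Figure D1:**
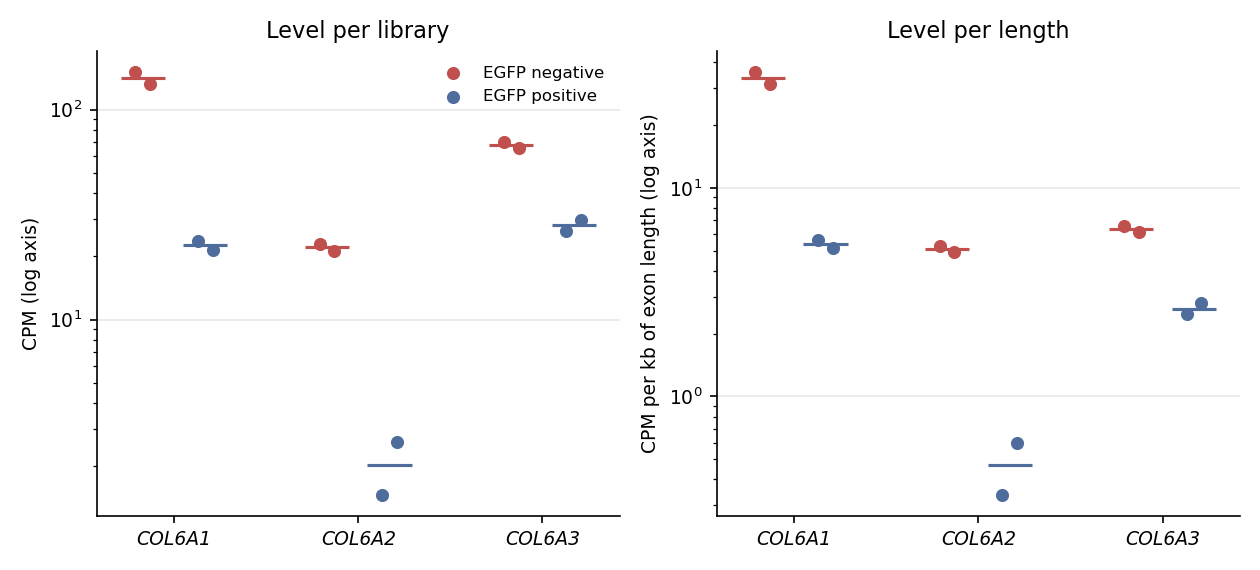
Levels of COL6A1, COL6A2 and COL6A3 in each library as CPM (left) and as CPM per kb of exon length (right), both on log axes, with EGFP negative libraries (red) left of EGFP positive libraries (blue) and bars at the group means of 2 libraries. Every chain is higher in both EGFP negative libraries, from 142 against 22.6 CPM for COL6A1 to 67.7 against 28.1 CPM for COL6A3, and COL6A2 averages 22.1 against 2.04 CPM.

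Summed over the chains, collagen VI transcripts took 244 and 219 CPM in the EGFP negative libraries, against 51.6 and 54.0 CPM in the EGFP positive libraries. The sum was 4.38-fold higher in EGFP negative cells. In bulk RNA, a larger share of cells that express a gene and more of its RNA per cell cannot be told apart.

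To set the chains beside each other, levels were taken per length, as CPM per kb of summed exon length. In EGFP negative cells COL6A1 was at 33.7 ± 3.23 CPM per kb, COL6A3 at 6.33 ± 0.314 CPM per kb and COL6A2 at 5.08 ± 0.253 CPM per kb (SD, n = 2). In EGFP positive cells COL6A1 was at 5.38 ± 0.366 CPM per kb, COL6A3 at 2.63 ± 0.23 CPM per kb and COL6A2 at 0.468 ± 0.184 CPM per kb (SD, n = 2). The order was thus COL6A1, COL6A3, COL6A2 in each group, and in each group all neighbours in that order were separated in both libraries. The order of COL6A3 and COL6A2 in EGFP negative cells depended on the length assigned to COL6A2. With its longest transcript in GENCODE 29, of 3461 bp, COL6A2 was at 6.39 CPM per kb in EGFP negative cells and COL6A3 at 6.30 CPM per kb.

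The ratios between the chains are likewise given as a description, with no test. COL6A2 and COL6A3, per length, stood at a ratio of 0.803 in both EGFP negative libraries, against 0.137 and 0.214 in the EGFP positive libraries. Counting intervals (95%, exact binomial), which cover counting error only, were 0.700 to 0.919 and 0.693 to 0.928 in EGFP negative libraries, against 0.0787 to 0.223 and 0.142 to 0.312 in EGFP positive libraries. The geometric mean ratio was 4.69-fold higher in EGFP negative cells, a log2 difference of 2.23. Differences of a ratio between groups do not depend on the length used or on library scaling.

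The ratio of COL6A1 to COL6A3 per length was 5.49 and 5.14 in the EGFP negative libraries, against 2.28 and 1.83 in the EGFP positive libraries. Both EGFP negative libraries had the higher ratio. The log2 difference was 1.38, a 2.60-fold higher ratio in EGFP negative cells.

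COL6A1 to COL6A2 was the less certain pair. Its ratio per length was 6.84 and 6.4 in the EGFP negative libraries, against 16.7 and 8.56 in the EGFP positive libraries. The values did not overlap, but the counting interval of EGFP positive library 2, 5.85 to 13.0, held both EGFP negative values. The log2 difference was -0.85. Leaving out EGFP positive library 1 gave -0.37, and leaving out EGFP positive library 2 gave -1.33.

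Taken as shares of the summed level per length, COL6A1 held 75.3% and 74.0% in EGFP negative libraries and 66.8% and 60.2% in EGFP positive libraries. COL6A2 held 11% and 11.6% in EGFP negative libraries and 4.0% and 7.03% in EGFP positive libraries. COL6A3 held 13.7% and 14.4% in EGFP negative libraries and 29.2% and 32.8% in EGFP positive libraries. The share of COL6A3 was thus the lower one in EGFP negative cells even though its own level was higher there. COL6A1 was in excess of both partners in every library. Coverage along the transcripts is not in count tables, so the part that fragments near the polyA end play in these ratios was not tested.

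**Figure D2:**
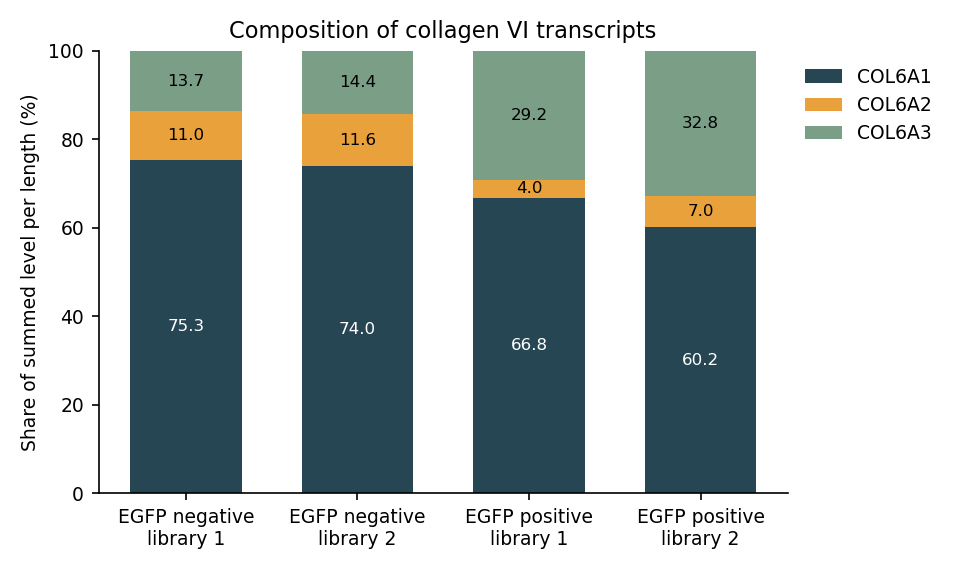
Share of each chain in the summed level per length of the 3 collagen VI chains, in percent, for the 4 libraries, with EGFP negative libraries on the left. COL6A3 makes up 13.7 and 14.4% in EGFP negative libraries and 29.2 and 32.8% in EGFP positive libraries, and COL6A2 11 and 11.6% against 4.0 and 7.03%.

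The alternative alpha 3-like chains were not detectable at this depth. COL6A5 and COL6A6, which encode chains that can take the place of alpha 3 in some tissues, had 0 counts in all 4 libraries, as did the pseudogene COL6A4P2. The pseudogene COL6A4P1 had 1 count in EGFP positive library 2 and 0 in the others. A count of 0 allows a level of up to 3 counts, which is 0.241 and 0.257 CPM in EGFP negative libraries and 0.260 CPM in each EGFP positive library. COL6A2-DT, a noncoding gene that starts close to COL6A2 on the other strand, also had 0 counts in all 4 libraries.

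Set among the other collagens, the chains stood at the upper end of the changes. They were selected on higher counts in EGFP negative cells, so nothing is read from their places. Of 39 other collagen genes 16 passed the filter, with 5 of those 16 called higher and 4 called lower by edgeR's quasi-likelihood test, with a median log2 fold change of -0.04 (against 0.00 for all tested genes). Among all tested genes 9.4% were higher and 9.46% lower. In the order of log2 fold change over 19 measured collagens, COL6A2 was at place 1, COL6A1 at place 2 and COL6A3 at place 4, with COL4A4 at place 3. The call of COL4A4 was lost by DESeq2 (adjusted p = 0.059) and by edgeR without EGFP positive library 1. That of COL5A2, the collagen that fell most, was also lost by edgeR without that library, and DESeq2 gave it no adjusted p. By level per length COL6A1 was at place 2 of 19 in EGFP negative cells and at place 9 in EGFP positive cells. COL13A1, a transmembrane collagen, was at place 1 in both, with 129 CPM per kb in EGFP negative cells and 85.0 CPM per kb in EGFP positive cells.

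Among the called collagens, COL8A1, a network-forming collagen, was at 94.6 and 104 CPM in EGFP negative libraries, against 344 and 331 CPM in EGFP positive libraries (log2 fold change -1.76 ± 0.09, SE; edgeR adjusted p = 6.5e-09). COL7A1, which forms anchoring fibrils, was at 165 and 147 CPM in EGFP negative libraries, against 65.4 and 65.2 CPM in EGFP positive libraries (1.26 ± 0.09, SE; edgeR adjusted p = 4.7e-07). COL18A1, the source of endostatin, averaged 101 CPM in EGFP negative cells and 45.4 CPM in EGFP positive cells. COL17A1, of the hemidesmosome, averaged 22.8 CPM in EGFP negative cells and 9.66 CPM in EGFP positive cells. Collagens thus changed in both directions, and COL8A1 and COL6A1 moved opposite ways. Outside collagen VI, 7 collagens with von Willebrand A domains were listed and 2 passed the filter: COL7A1 was higher, and COL12A1 was lower, with 155 ± 0.202 CPM in EGFP negative cells and 235 ± 8.58 CPM in EGFP positive cells (SD, n = 2).

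**Figure D3:**
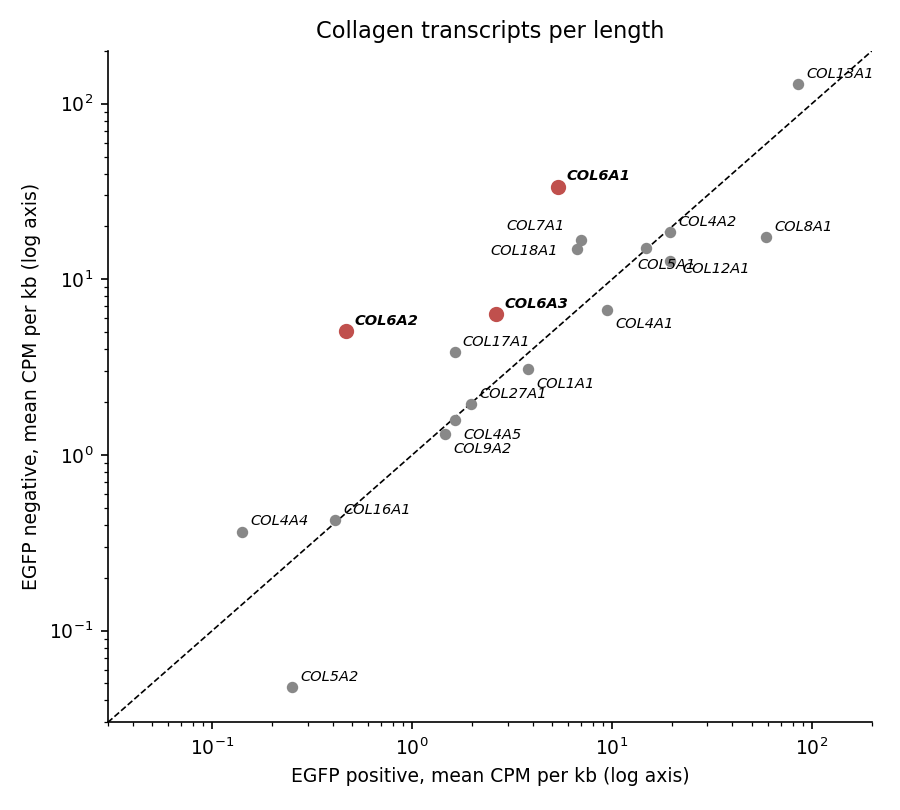
Mean level per length (CPM per kb of exon length, n = 2 libraries) of 19 measured collagens in EGFP negative cells (vertical, log axis) against EGFP positive cells (horizontal, log axis), with collagen VI chains in red and equal levels on the dashed line. COL6A2 and COL6A1 lie farthest above the line, COL6A3 lies above it near COL17A1 and COL7A1, and COL8A1 and COL5A2 lie below it.

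Cell surface receptors of collagens were mostly higher in EGFP negative cells. This list, like the other gene lists here, was chosen with earlier results of these data known, so its shares are a description. Of 10 listed receptor genes 9 were tested, with 6 higher (66.7%, against 9.4% of all tested genes) and 1 lower (11.1%, against 9.46%) and a median log2 fold change of 0.70 (0.00 over all tested genes). ANTXR2 (CMG2), which binds collagen VI and helps to take it up, was at 544 and 579 CPM in EGFP negative libraries, against 244 and 241 CPM in EGFP positive libraries. Its log2 fold change was 1.21 ± 0.08 (SE; edgeR adjusted p = 1.1e-07). The related ANTXR1, which also binds collagen VI, was at 102 CPM in EGFP negative cells and 118 CPM in EGFP positive cells and was not called (edgeR adjusted p = 0.13, and 0.0067 without EGFP negative library 2).

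CSPG4, the proteoglycan NG2 that binds collagen VI at the cell surface, was at 36.8 and 30.2 CPM in EGFP negative libraries, against 13.2 and 12.7 CPM in EGFP positive libraries (edgeR adjusted p = 1.4e-05). Of the integrin subunits that pair with beta 1 to bind collagens, ITGA2 rose to 689 CPM in EGFP negative cells, against 376 CPM in EGFP positive cells, and ITGA10 rose to 11.9 CPM in EGFP negative cells, against 3.81 CPM in EGFP positive cells. ITGA1 rose to 27.1 CPM in EGFP negative cells, against 16.7 CPM in EGFP positive cells. ITGB1, their shared partner, rose by a log2 fold change of 0.29, a call lost when either EGFP positive library was left out (edgeR adjusted p = 0.31 and 0.21). ITGA11 had 1 count in each library. The collagen receptor kinase DDR2 was lower (0.822 CPM in EGFP negative cells and 2.12 CPM in EGFP positive cells; edgeR adjusted p = 0.043). That call rested on few counts and was lost by DESeq2 (adjusted p = 0.21), and by edgeR when EGFP negative library 2 or either EGFP positive library was left out. Its paralog DDR1 was not called (edgeR adjusted p = 0.061, and 0.0017 without EGFP negative library 2).

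Most genes that modify, fold and export collagens were not called. Of 24 listed 22 were tested, with 3 higher (13.6%, against 9.4% of all tested genes) and 4 lower (18.2%, against 9.46%), and a median log2 fold change of 0.09. The 4 lower calls were 2 without either EGFP positive library and by DESeq2. PLOD1, a lysyl hydroxylase, was at 233 and 209 CPM in EGFP negative libraries, against 135 and 131 CPM in EGFP positive libraries (edgeR adjusted p = 4.1e-05). P4HA1, a catalytic subunit of prolyl 4-hydroxylase, was at 63.0 and 82.3 CPM in EGFP negative libraries, against 37.7 and 43.7 CPM in EGFP positive libraries. The glycosyltransferase genes went opposite ways: COLGALT2 rose to 44.2 CPM in EGFP negative cells, against 24.5 CPM in EGFP positive cells, while COLGALT1 fell to 318 CPM in EGFP negative cells, against 435 CPM in EGFP positive cells. P3H2, a prolyl 3-hydroxylase, fell to 86.3 CPM in EGFP negative cells, against 140 CPM in EGFP positive cells. The collagen chaperone SERPINH1 (edgeR adjusted p = 0.37), P4HB (0.45) and the export receptor MIA3 (0.45) were not called. Without EGFP negative library 2, SERPINH1 was called higher (edgeR adjusted p = 0.0072) and MIA3 lower (0.026).

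Genes of matrix proteins that bind collagen VI or lie beside it were mostly not called or nearly silent, and the called ones were split. Of 22 listed partners 11 were tested, with 2 higher (18.2%, against 9.4% of all tested genes) and 3 lower (27.3%, against 9.46%). The median log2 fold change was -0.13. The 2 higher calls were 1 without either EGFP positive library. VWA1 (WARP), a small protein with a von Willebrand A domain that binds collagen VI, was at 31.7 and 25.5 CPM in EGFP negative libraries, against 8.91 and 9.98 CPM in EGFP positive libraries (log2 fold change 1.60 ± 0.16, SE; edgeR adjusted p = 9.2e-06). MATN2, encoding matrilin 2, an adaptor between matrix fibrils, went the other way, with 26.2 and 24.9 CPM in EGFP negative libraries, against 102 and 92.6 CPM in EGFP positive libraries (-1.93 ± 0.10, SE; edgeR adjusted p = 2.1e-08). Fibrillin 1 (FBN1) fell to 90.7 CPM in EGFP negative cells, against 154 CPM in EGFP positive cells. Fibronectin (FN1) was not called (edgeR adjusted p = 0.28). The small proteoglycans that organise collagen VI in connective tissue were at or near 0, with 0 counts of BGN and DCN in all 4 libraries and at most 4 counts of LUM in any.

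Proteases and uptake receptors that act on collagens were partly higher. Of 13 listed 9 were tested, with 5 higher (55.6%, against 9.4% of all tested genes) and 0 lower (against 9.46%). The median log2 fold change was 0.62. The membrane metalloproteinase MMP14 was at 1276 and 1214 CPM in EGFP negative libraries, against 756 and 725 CPM in EGFP positive libraries (0.75 ± 0.07, SE; edgeR adjusted p = 6.2e-06). Cathepsin genes CTSL, at 105 CPM in EGFP negative cells and 68.6 CPM in EGFP positive cells, and CTSB, at 189 CPM in EGFP negative cells and 126 CPM in EGFP positive cells, rose as well. So did MRC2, an uptake receptor for collagens, at 107 CPM in EGFP negative cells and 68.4 CPM in EGFP positive cells. BMP1 (edgeR adjusted p = 0.61) and FURIN (0.91) were not called, and MMP9 had 0 counts in all 4 libraries.

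**Figure D4:**
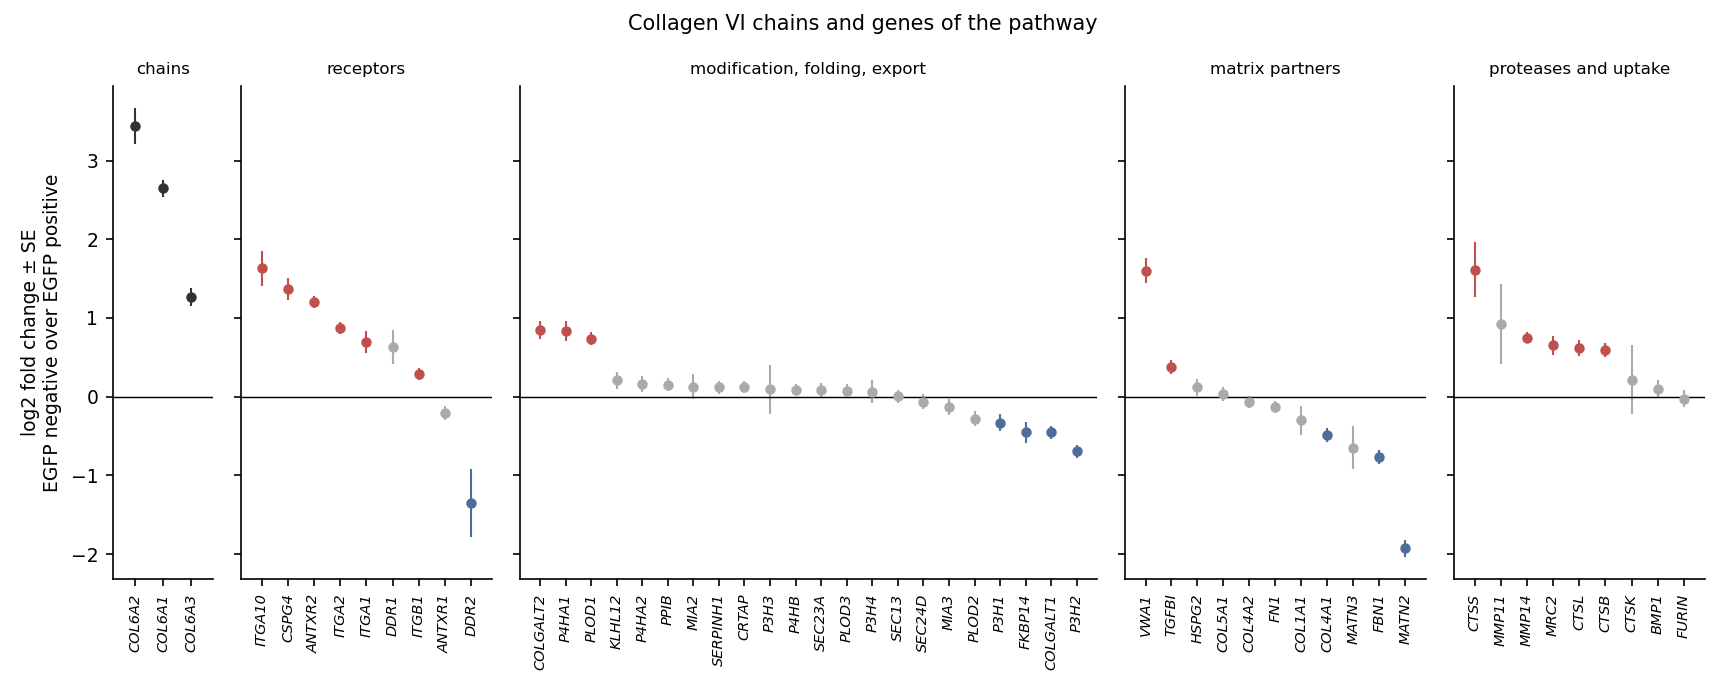
Log2 fold change ± SE, EGFP negative over EGFP positive, of the 3 collagen VI chains (dark, shown as a description) and of tested genes for receptors, modification and export, matrix partners, and proteases and uptake, each panel sorted by its values. Red marks genes called higher, blue lower and grey not called; receptors and proteases lie mostly above 0, with medians of 0.70 and 0.62, and modification genes are centred near 0, with a median of 0.09.

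The neighbours of COL6A1 and COL6A2 on chromosome 21 were examined because position played no part in choosing the chains. Within 1 Mb of the pair 64 other genes are listed and 17 were tested. Of those 8 were higher (47.1%, against 9.4% of all tested genes) and 0 lower (against 9.46%), with a median log2 fold change of 0.42. Over the whole of chromosome 21 without the chains, 24 of 170 tested genes were higher (14.1%) and 12 lower (7.06%), with a median of 0.03. Those 170 include the 17 genes near the pair. The count near the pair fell when EGFP positive library 2 was left out, as did the number of genes called higher over all tested genes. PCBP3, the nearest tested gene before COL6A1, had 19 and 16 counts in EGFP negative libraries, against 2 and 2 in EGFP positive libraries, a pooled ratio of 8.37 (95% counting interval 2.99 to 32.4). SPATC1L, the nearest tested gene after COL6A2, was not called (log2 fold change 0.23; edgeR adjusted p = 0.45).

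COL18A1, which lies before PCBP3, has been given above. LINC00205, a noncoding gene, was at 34.8 and 36.3 CPM in EGFP negative libraries, against 20.3 and 17.6 CPM in EGFP positive libraries. C21orf58 (log2 fold change 0.93 ± 0.18, SE) and DIP2A (0.54 ± 0.11, SE) were also higher, and DIP2A was no longer called without EGFP positive library 2 (edgeR adjusted p = 0.062). The other called genes were POFUT2, LSS and MCM3AP, with log2 fold changes of 0.46, 0.50 and 0.35. None of the 3 was called without EGFP positive library 2 (edgeR adjusted p = 0.21, 0.12 and 0.21), and POFUT2 and MCM3AP were not called without EGFP positive library 1 either. All 8 changed less than either chain of the pair except PCBP3, whose interval was wide. The number of copies of the region was not measured.

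Within 1 Mb of COL6A3 44 other genes are listed and 15 were tested. Of those 3 were higher (20%, against 9.4% of all tested genes) and 0 lower (against 9.46%), with a median log2 fold change of 0.09. Over chromosome 2 without COL6A3 but with this window included, 76 of 1107 tested genes were higher (6.87%) and 133 lower (12%). Of the 15 tested genes near COL6A3, DESeq2 called 1, and edgeR also called fewer when EGFP positive library 1 was left out. MLPH, encoding melanophilin, was at 150 and 159 CPM in EGFP negative libraries, against 108 and 106 CPM in EGFP positive libraries (0.53 ± 0.09, SE; edgeR adjusted p = 5.7e-04). The clock gene PER2 averaged 9.75 CPM in EGFP negative cells and 5.81 CPM in EGFP positive cells, and lost its call when either EGFP positive library was left out. An unnamed noncoding gene that begins 20.7 kb from the start of COL6A3 had 15 and 17 counts in EGFP negative libraries, against 2 and 3 in EGFP positive libraries, and was the third. Of the tested genes next to COL6A3, another unnamed noncoding gene, at 11.1 kb, had a log2 fold change of 1.34 ± 0.51 (SE) and was not called (edgeR adjusted p = 0.086). COPS8, on the other side of COL6A3, was not called (edgeR adjusted p = 0.86).

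**Figure D5:**
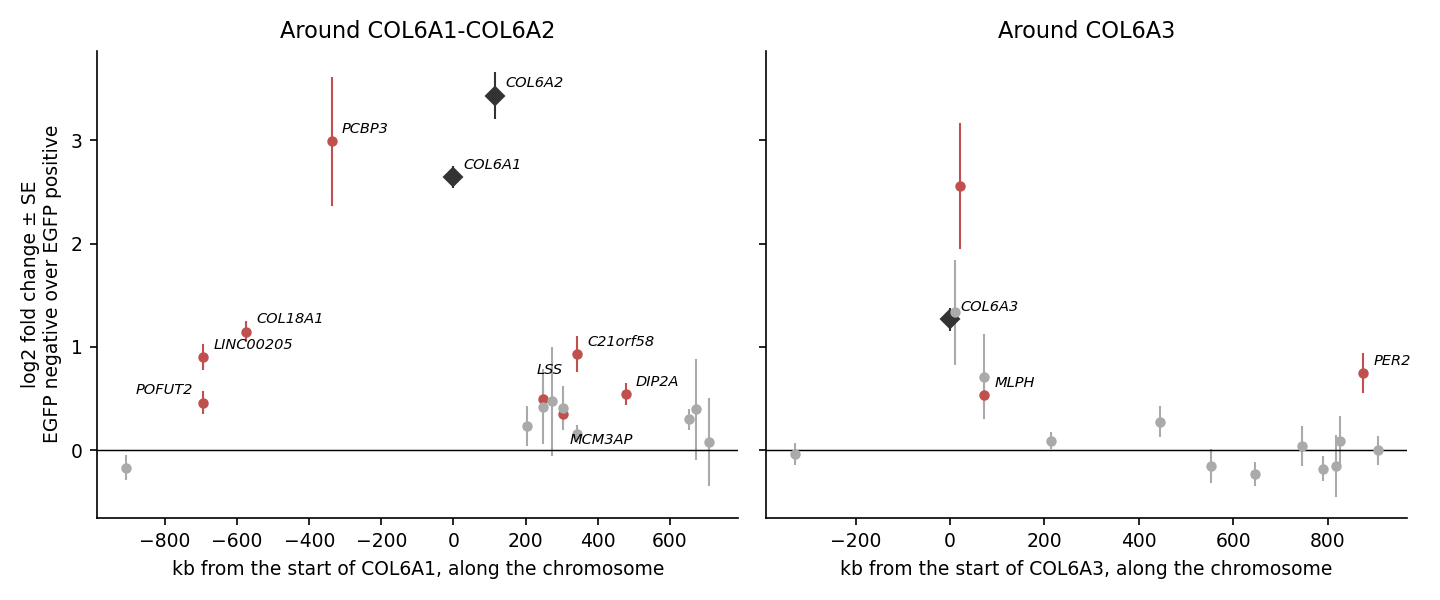
Log2 fold change ± SE, EGFP negative over EGFP positive, of tested genes within 1 Mb of COL6A1 and COL6A2 (left) and of COL6A3 (right), by distance in kb between starts. Collagen VI chains are dark diamonds, genes called higher are red and the rest grey; 8 of 17 neighbours on the left and 3 of 15 on the right were called higher, with 0 called lower in either window.

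Profiles over the 4 libraries were compared by the root mean square difference of centred log2 CPM, among protein-coding genes. The 5 nearest to COL6A1 were SORL1 (0.043), ITGB4 (0.060), PDE2A (0.061), PPP2R2C (0.113) and TIAM1 (0.113). Nearest to COL6A2 were KRT83 (0.156), SCNN1A (0.189), ARHGAP30 (0.211), CFP (0.225) and NUP210 (0.255). COL6A3 had CYP1B1 (0.036), HSPA12A (0.040), FZD1 (0.044), B3GNT9 (0.048) and TCN2 (0.049) nearest. No chain was among the 5 nearest of another. SORL1, a sorting receptor, was at 43.7 and 39.0 CPM in EGFP negative libraries, against 6.92 and 5.82 CPM in EGFP positive libraries. CYP1B1, a cytochrome P450, was at 44.7 and 43.7 CPM in EGFP negative libraries, against 17.6 and 18.9 CPM in EGFP positive libraries. KRT83 belongs to a keratin family of near-identical genes, so its counts are uncertain. With 4 libraries in 2 groups, such profiles hold little more than the size of the difference between the groups.

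Markers of other cells were read beside these values. VIM, CD44 and EGFR, high in MDA-MB-231, were at 476 to 6022 CPM, and CDH1, ESR1 and PGR at 3 counts or fewer in every library. Of 10 fibroblast markers, 6 had at most 3 counts in every library, and DCN and FAP had 0 in all. Their sum was 29.1 and 18.9 CPM in EGFP negative libraries, against 27.8 and 23.4 CPM in EGFP positive libraries. COL1A1 made up most of it, and PDGFRB was the marker called higher (edgeR adjusted p = 0.033, against 0.34 without EGFP positive library 2, 0.063 without EGFP negative library 1 and 0.11 by DESeq2). Without COL1A1 the other 9 fibroblast markers summed to 6.67 and 4.97 CPM in EGFP negative libraries, against 4.24 and 2.17 CPM in EGFP positive libraries. The whole fibroblast sum thus overlapped between the groups, and the sum without COL1A1 was higher in EGFP negative libraries with no overlap. PDGFRB made up most of the latter, with 5.86 and 4.46 CPM in EGFP negative libraries and 3.20 and 1.82 CPM in EGFP positive libraries. The part of fibroblast markers in the collagen VI result was not tested.

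Pericyte markers, of which CSPG4 and PDGFRB were higher and MCAM lower of 5, summed to 188 and 179 CPM in EGFP negative libraries, against 315 and 293 CPM in EGFP positive libraries. MCAM made up most of that sum, and the other 4 summed to 47.1 and 39.0 CPM in EGFP negative libraries, against 20.6 and 18.6 CPM in EGFP positive libraries, the opposite order. Endothelial markers, with PECAM1 and TIE1 higher of 5 and CDH5 at 0 in all libraries, summed to 22.3 and 20.9 CPM in EGFP negative libraries, against 19.5 and 18.8 CPM in EGFP positive libraries. KDR, a large part of that sum, went the other way and was not called (edgeR adjusted p = 0.067). It was at 10.5 and 8.06 CPM in EGFP negative libraries, against 13.1 and 13.3 CPM in EGFP positive libraries. TIE1 lost its call without either EGFP positive library (edgeR adjusted p = 0.061 and 0.19) and by DESeq2. Leukocyte markers summed to at most 1.30 CPM in any library, with 0 of 5 passing the filter. The part of pericyte and endothelial markers in the collagen VI result was not tested. H2BC11, an H2B gene, averaged 6.28 CPM in EGFP negative cells and 654 CPM in EGFP positive cells. Whether RNA of the H2B-EGFP fusion was counted under this gene was not tested. Totals were 12635576 and 11620076 counts in EGFP negative libraries, against 11620005 and 11445076 in EGFP positive libraries.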

How the data were processed

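Per the file headers, the authors counted read pairs per gene name over exons with featureCounts 2.0.1 and the GENCODE 46 basic annotation, with no strand option, although per the labels' protocols the libraries were stranded and selected by polyA tail. The deposited values are raw counts with an exon length in bp for each gene. The submitters' processing notes name GRCh37 and hg19, while the deposited coordinates are those of GRCh38; the aligner is not given in the sources used here.

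Members and gene lists were chosen with earlier results of these data known. Genes were kept by filterByExpr (minimum count 10, minimum total 15). Groups were compared in edgeR 4.0.16 under R 4.3.3 by its quasi-likelihood test over 4 libraries with group as the only term, TMM scaling (factors 0.987 to 1.01) and Benjamini-Hochberg adjustment at 0.05 over 16413 genes, two-sided. An exact permutation of 2 against 2 libraries cannot go below p = 0.33. CPM were computed here, and log2 CPM for profiles with a prior count of 2. Named genes are up to 4 called genes per list with the smallest adjusted p, the tested neighbours next to the chains and the 5 nearest profiles per chain. Values of further list members, among them ITGA1, ITGB1, DDR2, COLGALT1, LUM, FURIN, POFUT2, LSS and MCM3AP, were chosen after they were seen. Counting intervals (95%) and floors (3 counts) cover counting error only. Replicates differed by more than sampling noise, with chi-square per degree of freedom of 6.15 in EGFP negative and 2.06 in EGFP positive libraries. The scripts were tested on simulated data. Alternatives were RLE and upper quartile scaling, other filters, DESeq2 1.42.0, limma-voom (limma 3.58.1), a block for replicate number, leaving out each library, another transcript length, a count added to each chain and another measure of likeness.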

Additional observations from a re-analysis of the deposited data

How the results depend on the processing

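All 3 chains stayed higher in EGFP negative cells under each alternative, and the order of their log2 fold changes stayed COL6A2, COL6A1, COL6A3. Leaving out 1 library gave 3.08 to 3.90 for COL6A2, 2.54 to 2.75 for COL6A1 and 1.18 to 1.36 for COL6A3. The number of called genes, 3095, was 2041 by DESeq2 and 1452 to 4942 with 1 library left out (1499 without EGFP positive library 1, 1452 without EGFP positive library 2, 4942 without EGFP negative library 2). With the replicate number as a block it was 4704. The labels give no shared source for equal numbers, and the deviations of same-numbered libraries correlated at 0.11 across genes. Calls near COL6A1 and COL6A2 numbered 4 to 12 with 1 library left out, and calls near COL6A3 1 to 4, with 1 by DESeq2. Counts of called receptors, partners, proteases, modification genes and other collagens, both directions summed, stayed within 1.5 times; by direction, lower modification genes (4) were 2 without either EGFP positive library, by DESeq2 and with no filter, and higher partners (2) were 1 without either EGFP positive library. Of 46 named genes that were called, chains aside, 9 lost the call without EGFP positive library 1, 9 without EGFP positive library 2, 5 by DESeq2, 1 without EGFP negative library 1, 1 without EGFP negative library 2 and 1 with no filter (DDR2, adjusted p = 0.055). DESeq2 gave no adjusted p for some named genes, among them COL5A2, and the 5 does not count these as lost. It is therefore a lower limit. COPS8 and FURIN, which were not called, changed sign: the log2 fold change with 1 library left out ran from -0.10 to 0.033 for COPS8 and from -0.17 to 0.11 for FURIN. With the longest transcript of GENCODE 29 as its length, COL6A2 was at 6.39 CPM per kb in EGFP negative cells, since that transcript is shorter than the deposited exon length. By the largest absolute difference 3 of the 5 genes nearest to COL6A1 were the same genes. The block ended no call of a named gene, and ANTXR1 (adjusted p = 0.038) and DDR1 (0.014) were called under it. The causes of the changes with single libraries were not tested. Low counts of COL6A2 in EGFP positive libraries limit its fold change and its ratios.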
